A study of Homo sapiens with 10 samples.

Results

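Cadherins are transmembrane glycoproteins that hold neighbouring cells together through calcium-dependent contacts of their extracellular repeats. Inside the cell, the tails of classical cadherins bind beta-catenin, gamma-catenin and p120-catenin, and alpha-catenin links the complex to actin at the adherens junction. Epithelia such as the urothelium are known for E-cadherin (CDH1) and P-cadherin (CDH3), mesenchymal and many carcinoma cells for N-cadherin (CDH2), and endothelium for VE-cadherin (CDH5).

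The 8 genes described here are CDH1, CDH2, CDH3, CDH4, CDH5, CDH6, CDH11 and CDH13, taken by name from the 61533 genes of the count tables. The label "classical" is loose for CDH13, because T-cadherin is anchored to the membrane by a lipid and has no catenin-binding tail. CDH1, CDH2, CDH3 and CDH4 encode type I cadherins, and CDH5, CDH6 and CDH11 type II cadherins. RNA-seq was done on 5 libraries of the human bladder cancer line T24 and on 5 libraries of T24R2, a cisplatin-resistant line derived from T24 by serial exposure to the drug, all on day 3 of culture. Cisplatin is a platinum drug that crosslinks DNA. T24R2 was maintained in cisplatin according to the methods of the study, whereas the labels list 1 medium without the drug for both lines, so the line and the exposure cannot be told apart. The labels do not say that the replicates were separate cultures, and p-values then measure only the spread between these libraries, which may be technical.

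Total counts per library ranged from 9257843 to 10840954. Of 16181 genes tested, 4027 were called higher and 4282 lower in T24R2, where a call required an adjusted p-value under 0.05 by the quasi-likelihood test of edgeR and an absolute log2 fold change over 0.5. Levels are given as CPM, which are counts scaled to library size with TMM factors, with the SD of 5 libraries. Scaling by library size alone shifted the median log2 fold change over the tested genes by 0.16 and the share of calls that were higher from 48.5% to 60.3%, and it changed no member's call. The urothelial and epithelial markers KRT7, KRT8 and KRT18 were high in both lines, whereas the defining urothelial markers UPK1B and UPK3A did not exceed 3 counts in any library and UPK2 had means of 9.90 and 2.74 CPM. Summed CPM of the 5 leukocyte markers stayed between 0.295 and 2.88 in all libraries. That of the 9 fibroblast markers was low but separated the lines, at 9.83 to 11.9 in T24 and 0.954 to 2.29 in T24R2. Both tested fibroblast markers were called lower, COL1A1 with a log2 fold change of -2.65 and PDGFRB, at 0 counts in every T24R2 library, at least 12.4-fold lower, and COL3A1, DCN and LUM did not exceed 3 counts in any library. The part of these markers in the cadherin levels was not tested.

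Among the 8 members, CDH5 was the leading mRNA of T24 and T24R2 had almost none of it, while CDH2 and CDH13 were higher in T24R2. CDH4 and CDH6 were lower in T24R2, and CDH1, CDH3 and CDH11 had at most 5 counts in any library. Of the 8 members, 5 passed the filter on low counts and were tested. Of these, 2 were called higher, beside 24.9% of all tested genes, and 3 were called lower, beside 26.5% of all tested genes. The libraries of the lines did not overlap for any of the 5, which was also the case for 61.2% of all tested genes.

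CDH5 encodes VE-cadherin, the adhesion molecule of endothelial junctions (ENSG00000179776, hg38 chr16:66366622-66404784, plus strand). The 5 T24 libraries had 219, 273, 240.3, 219 and 243 CPM. The 5 T24R2 libraries had 0.0918, 0.607, 0.768, 0.445 and 0.885 CPM, which came from 1, 7, 8, 5 and 9 counts. Every T24 library was thus far above every T24R2 library. The means were 239 ± 22.3 and 0.559 ± 0.310 CPM (SD, n = 5 each), a 427-fold lower level in T24R2. The log2 fold change was -8.72 with a standard error of 0.12 (adjusted p = 1.76e-39, edgeR quasi-likelihood test with Benjamini-Hochberg adjustment). No exon base of CDH5 is shared with an annotated gene on the opposite strand.

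**Figure D1:**
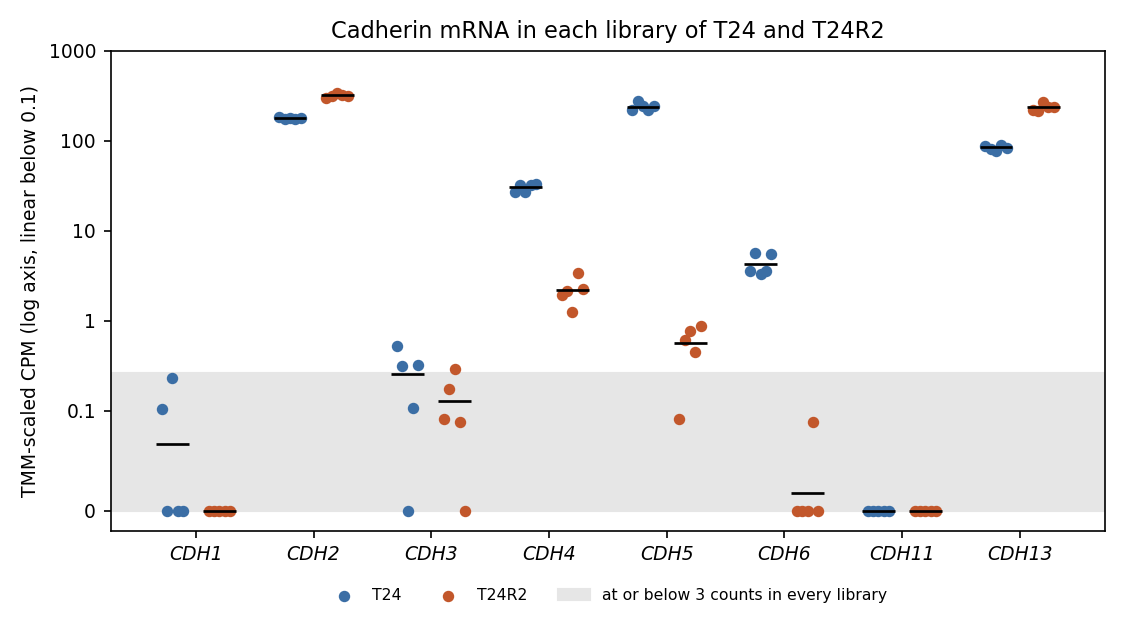
Each point is 1 library and the black bars are means of 5 libraries of T24 (blue) or T24R2 (orange), with TMM-scaled CPM on a log axis that is linear below 0.1. The grey band marks levels that correspond to 3 counts or fewer in every library. CDH5 lies at 219 to 273 CPM in T24 and at 0.0918 to 0.885 CPM in T24R2, whereas CDH2 and CDH13 are above 200 CPM in every T24R2 library.

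Since VE-cadherin marks endothelium, the other endothelial markers were read beside it. Of 10 such genes, 4 were tested, with 3 called lower and 1 higher in T24R2, beside 26.5% and 24.9% of all tested genes. The summed CPM of the 10 genes ran from 88.5 to 94.0 in T24 and from 19.3 to 27.0 in T24R2. TIE1, a receptor tyrosine kinase of endothelial cells, made up most of the T24 level, with 77.1 ± 2.08 CPM in T24 and 0.537 ± 0.252 CPM in T24R2 (log2 fold change -7.14, SE 0.13, adjusted p = 1.93e-35, edgeR). ESAM, an endothelial adhesion molecule, was lower in T24R2 with a log2 fold change of -4.16, whereas ROBO4, a guidance receptor of vessels, was higher with a log2 fold change of 3.14. The defining endothelial markers were low in both lines. PECAM1 had means of 5.36 and 1.17 CPM, VWF did not exceed 8 counts in any library, and KDR and TEK did not exceed 3. In bulk RNA, fewer cells of a type and less RNA per cell cannot be told apart. The part of these markers in the level of CDH5 was not tested.

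CDH2 encodes N-cadherin (ENSG00000170558, chr18:27932879-28177946, minus strand). Its level was 185, 174, 178, 176 and 178 CPM in the T24 libraries. In T24R2 it was 297, 317, 338, 322 and 318 CPM. All T24R2 libraries lay above all T24 libraries, and the T24 libraries varied among themselves by a coefficient of variation of only 2.37%. The means of 178 ± 4.22 and 318 ± 14.9 CPM (SD, n = 5 each) differed 1.79-fold, and the log2 fold change was 0.84 with a standard error of 0.04 (adjusted p = 5.65e-20, edgeR). An unnamed gene on the opposite strand covers 3.58% of the exon bases of CDH2, and its counts were higher in T24R2, by a log2 fold change of 1.00. As 47.7% of its exon bases lie opposite CDH2, these counts may include reads of CDH2. With all counts of that gene taken off, the log2 ratio of CDH2 was 0.81. Its counts were 0.122 times those of CDH2 in T24 and 0.137 times in T24R2, so taking them off could change the ratio only a little.

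CDH13 encodes T-cadherin, which also serves as a receptor for adiponectin and low-density lipoprotein (ENSG00000140945, chr16:82626965-83800640, plus strand). The T24 libraries had 88.3, 82.0, 76.3, 90.6 and 83.9 CPM. The T24R2 libraries had 218, 214, 271, 236 and 239 CPM. The highest T24 library was well below the lowest T24R2 library. The mean rose from 84.2 ± 5.58 CPM in T24 to 235 ± 22.5 CPM in T24R2 (SD, n = 5 each), which is 2.79-fold, with a log2 fold change of 1.48 and a standard error of 0.06 (adjusted p = 1.39e-24, edgeR). Of the exon bases of CDH13, 21.4% lie opposite exons of CDH13-AS2, an antisense RNA gene that had 217 to 331 counts in T24 and 867 to 932 in T24R2. The library kit is not named as strand-specific in the labels or methods, whereas counting used strand option 1, which takes 1 strand only. In the counts, 139 genes that lie at least 80% opposite the exons of 1 gene with a mean of 1000 counts or more had a median of 1.70 times that gene's counts per base (quartiles 0.271 and 2.89), so both strands were counted at a like level. Reads of CDH13 and CDH13-AS2 in the shared bases are therefore taken as not separable. With all CDH13-AS2 counts taken off, the log2 ratio of CDH13 was 1.44. The counts of CDH13-AS2 were 0.333 times those of CDH13 in T24 and 0.351 times in T24R2, so taking them off could change the ratio only a little.

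CDH4 encodes R-cadherin, known from retina and brain (ENSG00000179242, chr20:61252261-61940617, plus strand). It measured 26.9, 32.6, 27.2, 31.8 and 32.7 CPM in T24. In T24R2 it measured 1.93, 2.17, 1.25, 3.39 and 2.26 CPM. The groups were far apart, although the T24R2 libraries varied more among themselves, by a coefficient of variation of 35.2%, than those of T24, by 9.76%. Means were 30.3 ± 2.95 and 2.20 ± 0.773 CPM (SD, n = 5 each), so that CDH4 was 13.8-fold lower in T24R2 (log2 fold change -3.77, SE 0.15, adjusted p = 2.50e-24, edgeR).

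CDH6 encodes K-cadherin, known from fetal kidney (ENSG00000113361, chr5:31193686-31329146, plus strand). It was the lowest of the tested members, with 34, 54, 29, 33 and 51 counts in the T24 libraries, or 4.32 ± 1.17 CPM (SD, n = 5). In T24R2 there was 1 count in replicate 4 and 0 in the other libraries. Against a floor of 3 counts per library, CDH6 was at least 15.6-fold lower in T24R2 (adjusted p = 4.19e-15, edgeR). A pseudogene, DUX4L51, shares 8.91% of the exon bases of CDH6 on the same strand and had 0 counts in every library. All its exon bases lie within those of CDH6, and how reads in both genes were counted is not stated. The 0 counts therefore do not show that the shared bases had no reads.

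The epithelial cadherins gave too few counts for a test in either line. CDH1 (ENSG00000039068, chr16:68737292-68835537, plus strand) had 1, 0, 2, 0 and 0 counts in T24 and 0 in all T24R2 libraries. CDH3 (ENSG00000062038, chr16:68636189-68727468, plus strand) had 5, 3, 0, 1 and 3 counts in T24 and 1, 2, 3, 1 and 0 in T24R2, with overlapping libraries. CDH11, the osteoblast cadherin of mesenchymal cells (ENSG00000140937, chr16:64943753-65126112, minus strand), had 0 counts in all 10 libraries. A count of 0 allows a level of up to 3 counts, which is at most 0.324 unscaled CPM in the shallowest library, so a difference between the lines in these genes was not detectable at this depth. Such floors cover counting error only.

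To compare different members with each other, counts were divided by exon length and expressed as TPM, which sums to the same total in every library. In T24 the order of mean TPM was CDH5 (121 ± 10.3), CDH2 (63.7 ± 1.63), CDH13 (23.5 ± 1.64), CDH4 (12.4 ± 1.25) and CDH6 (1.06 ± 0.283), and the libraries of neighbours in this order did not overlap. In T24R2 the order was CDH2 (133 ± 6.35), CDH13 (76.5 ± 6.95), CDH4 (1.05 ± 0.375) and CDH5 (0.330 ± 0.183). The last pair came close, since the lowest CDH4 library had 0.588 TPM and the highest CDH5 library 0.526 TPM. CDH5 ranked 1210 from the top among 29445 genes with a count in T24 and 22783 among 30054 in T24R2. CDH2 moved from rank 2488 to 1073 and CDH13 from 6165 to 2143.

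The make-up of the summed mRNA of the 8 members thus differed between the lines, while its total overlapped between them. Cadherin genes outside the 8 members are not part of these shares and sums. Among them, CDH24 had 21.2 ± 1.80 TPM in T24 and 13.2 ± 1.52 TPM in T24R2, above CDH4 in both lines. CDH5 took 54.4 ± 2.59% of the summed TPM of the 8 members in T24 and 0.154 ± 0.0831% in T24R2. The share of CDH2 was 28.8 ± 1.78% in T24 and 63.1 ± 1.35% in T24R2, and that of CDH13 was 10.6 ± 1.03% and 36.2 ± 1.41%. CDH4 accounted for 5.58 ± 0.464% and 0.501 ± 0.178%. Each of these shares, and that of CDH6, separated the lines completely (p = 0.00794 by an exact two-sided permutation test, a value that 5 against 5 libraries cannot go below; adjusted p = 0.0102 over 9 comparisons). The shares of the 8 members add up to the whole in each library, so these tests are not separate from each other. A smaller share of CDH5 alone makes the shares of the other members larger.

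**Figure D2:**
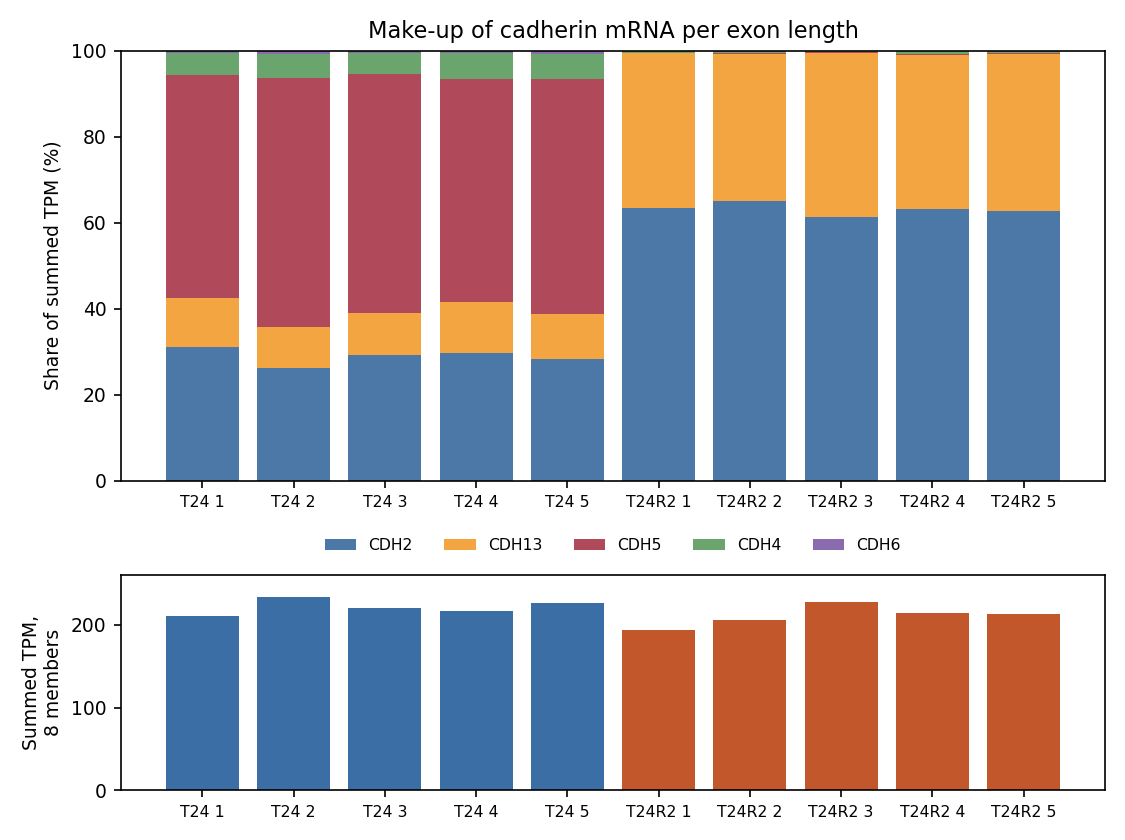
The upper bars give the share of each member in the summed TPM of the 8 members in each library, in percent, and the lower bars give that sum. CDH5 fills 51.8% to 58.0% of every T24 bar, and CDH2 fills 61.3% to 65.0% of every T24R2 bar, while the sums overlap between the lines.

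The summed TPM was 221 ± 8.84 in T24 and 211 ± 12.6 in T24R2 (exact two-sided permutation test, p = 0.167, adjusted p = 0.188). The summed CPM, which weights long transcripts more, was 536 ± 19.7 and 557 ± 36.0 (exact two-sided permutation test, p = 0.310, adjusted p = 0.310). The sums overlapped on both scales and their means differed in opposite directions, so that no difference in total was shown. CDH2 exceeded CDH13 in TPM 2.73 ± 0.180-fold in T24 and 1.74 ± 0.106-fold in T24R2 (exact two-sided permutation test, p = 0.00794, adjusted p = 0.0102). The rise of CDH13 was thus larger as a fold, whereas the gain in mean TPM and in share of summed TPM was larger for CDH2. On CPM the order was the reverse, with the larger gain in mean CPM and in share of summed CPM for CDH13. Which member gained more therefore depended on the division by exon length. The sums and the ratio of CDH2 to CDH13 were chosen after the values were seen.

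Of 18 cytoplasmic and adhesive partners of cadherins at the adherens junction, 14 were tested, with 1 called higher, 5 called lower and 8 not called. Over all tested genes, 24.9% were called higher and 26.5% lower. The median log2 fold change of the partners was -0.07, beside 0.01 for all tested genes. Of the 8 catenin genes among the partners, 5 were tested, with 0 called higher and 2 lower, beside the same shares over all tested genes. By edgeR at an unadjusted p under 0.05, without the minimum fold change, 1 catenin gene, CTNNB1, was higher, and DESeq2 and limma-voom called 0 higher at the full criteria. JUP, the gene of gamma-catenin, which sits in adherens junctions and desmosomes, fell from 229.9 ± 12.5 to 110.3 ± 5.44 CPM (log2 fold change -1.06, SE 0.05, adjusted p = 5.37e-22, edgeR). ARVCF, a relative of p120-catenin, fell from 59.1 ± 2.68 to 20.9 ± 2.25 CPM (log2 fold change -1.50, SE 0.08, adjusted p = 9.65e-21, edgeR). CTNNB1, the gene of beta-catenin, had 349 ± 14.2 CPM in T24 and 424 ± 13.0 CPM in T24R2, a log2 fold change of 0.28 that stayed under the minimum of 0.5. CTNNA1, the gene of alpha-E-catenin, had a log2 fold change of -0.16. CTNND1, the gene of p120-catenin, had a log2 fold change of 0.09 (adjusted p = 0.452, edgeR), but 51.8% of its exon bases are shared with another gene on the same strand, and its counts are uncertain.

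Among the other partners, LIMA1, an actin-binding protein of the junction, fell from 171 ± 6.40 to 98.6 ± 4.22 CPM (log2 fold change -0.80). The nectins are immunoglobulin-like adhesion molecules that work beside cadherins, and they moved in both directions. NECTIN1 and NECTIN2 were lower, with log2 fold changes of -1.51 and -0.54, whereas NECTIN3 was the only partner called higher, with a log2 fold change of 0.96. NECTIN2 was not called with library size alone or with upper-quartile factors, which left 4 partners called lower. ACTN4, an actin crosslinker, had a log2 fold change of 0.48, just under the minimum, and was called higher with library size alone, with upper-quartile factors, at a mean of at least 100 counts and without T24R2 replicate 4, while 14.2% of its exon bases lie opposite another gene. The nectins and ACTN4 were named after their values were seen.

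Of 50 other genes of the cadherin superfamily, 22 were tested and 28 had too few counts. They include further CDH genes such as CDH24, protocadherins, desmosomal cadherins and FAT-like cadherins. Of the 22, 5 were called higher, beside 24.9% of all tested genes, and 14 lower, beside 26.5%, and their median log2 fold change was -0.86. CLSTN1, a calsyntenin that binds kinesin, fell from 473 ± 13.5 to 257 ± 7.98 CPM (log2 fold change -0.88, SE 0.04, adjusted p = 1.58e-21, edgeR). PCDH7, a protocadherin, fell from 21.0 ± 1.82 to 2.48 ± 0.734 CPM (log2 fold change -3.09), and 12.7% of its exon bases lie opposite another gene. FAT3, a giant cadherin, fell from 14.6 ± 1.41 to 0.544 ± 0.336 CPM (log2 fold change -4.69). CDH8, CDH10, CDH15 and CDH24, named after their values were seen, were called lower too. CDH24 fell from 25.9 ± 2.11 to 13.8 ± 1.68 CPM (log2 fold change -0.91). CDH10 and CDH15 had log2 fold changes of -1.25 and -1.39, at means of only 1.42 and 1.52 CPM in T24 and with overlapping libraries.

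The desmosomal cadherins DSG2, DSC2 and DSC3, which join cells through intermediate filaments, were all called lower, with log2 fold changes of -0.84, -1.29 and -2.51. Those called higher were CDHR2, CDHR3, CELSR2, PCDH12 and PCDH17. The call of PCDH12 was marginal (log2 fold change 0.79, SE 0.37, adjusted p = 0.0482, edgeR), its libraries overlapped at 3 to 16 counts in T24 and 12 to 23 in T24R2, and it was lost with DESeq2, without a count filter and without any of T24 replicates 1, 2 and 5 and T24R2 replicates 1, 2 and 3. Of the genes called higher, CELSR2, a seven-pass cadherin of planar cell polarity, had the highest level, at 64.4 ± 2.49 CPM in T24 and 122 ± 8.76 CPM in T24R2 (log2 fold change 0.92). The desmosomal cadherins and the genes called higher were named after their values were seen. FAT1, another giant cadherin, had a log2 fold change of -0.08 and was not called.

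**Figure D3:**
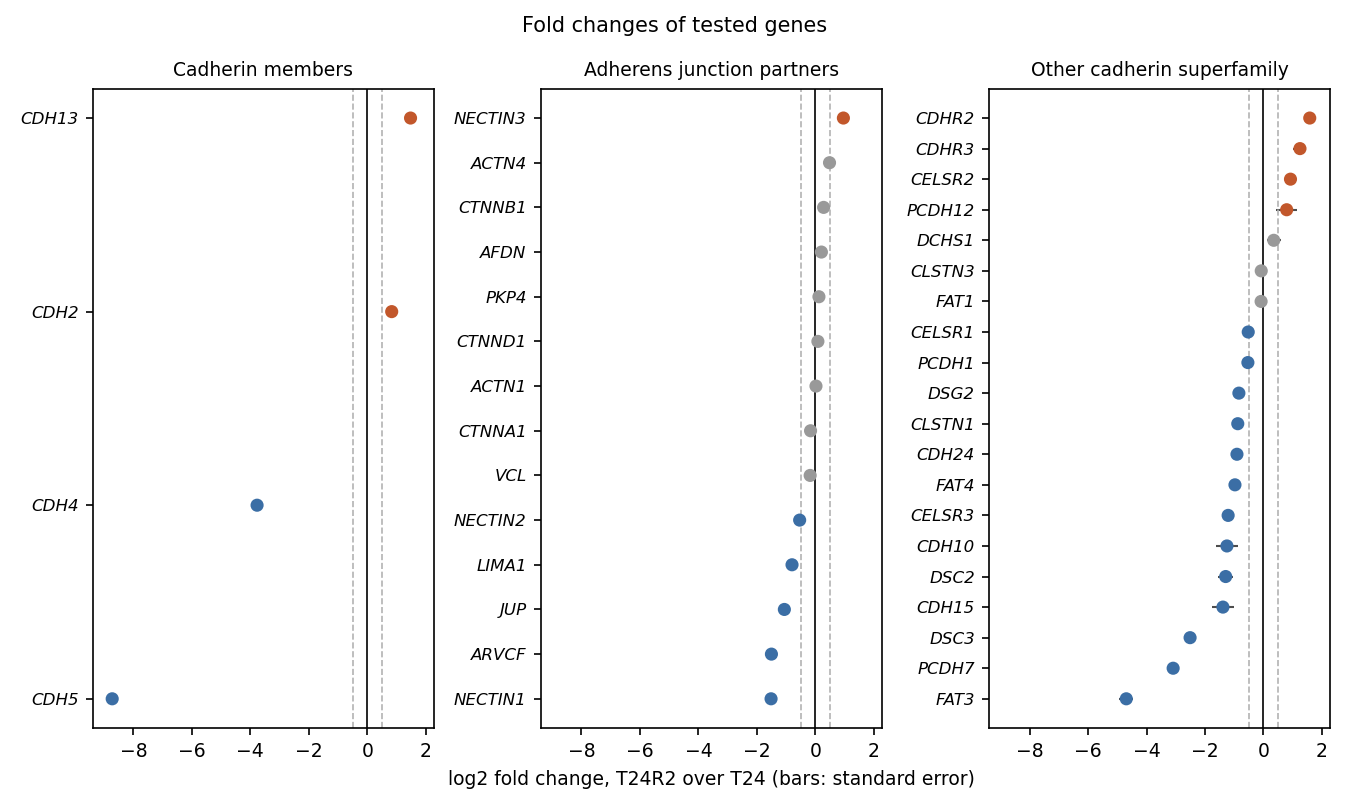
Points are log2 fold changes of T24R2 over T24 for tested members, adherens junction partners and other cadherin superfamily genes, with standard errors as bars. Orange points were called higher, blue points lower and grey points were not called, and the dashed lines mark 0.5 on either side of 0. CDH6, CDH8 and PCDH17 are not drawn because 1 line was at or under 3 counts. The CDH5 point at -8.72 is the lowest of those drawn, and 8 of the 14 partners are grey.

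In the desmosomal plaque, which anchors the desmosomal cadherins, 0 of 6 tested genes were called higher and 4 lower by edgeR. Over all tested genes, the shares were 24.9% higher and 26.5% lower. At an unadjusted p under 0.05 alone 1 gene, DSP, was higher, with a log2 fold change of 0.16, and DESeq2 and limma-voom called 0 higher. PPL, the gene of periplakin, fell from 119 ± 5.11 to 3.28 ± 0.307 CPM (log2 fold change -5.17, SE 0.08, adjusted p = 2.06e-37, edgeR). EVPL, the gene of envoplakin, had a log2 fold change of -1.05, and JUP, described above, belongs to this list too. Among genes that shed cadherins from the surface or move them into endosomes, 2 of 10 tested genes were called higher and 3 lower, beside the same shares. Those called lower were the metalloproteases MMP14 (570.5 ± 5.20 to 184 ± 9.29 CPM, log2 fold change -1.63), ADAM9 (log2 fold change -1.28) and ADAM15 (log2 fold change -0.78). Those called higher were CBLL1 and NCSTN, with log2 fold changes of 1.05 and 0.57. ADAM10, another metalloprotease, had 191 ± 10.2 and 268 ± 3.94 CPM, a log2 fold change of 0.49 just under the minimum. CBLL1, NCSTN and ADAM10 were named after their values were seen.

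Factors known to repress cadherin genes, CDH1 above all, did not move in 1 direction. Of 9 tested, 3 were called higher and 2 lower, beside 24.9% and 26.5% of all tested genes. KLF8 had at most 3 counts in any T24 library and 19.5 ± 2.04 CPM in T24R2, at least 60.4-fold higher against a floor of 3 counts per library. SNAI1, the gene of Snail, fell from 3.53 ± 0.366 to 0.164 ± 0.188 CPM (log2 fold change -4.31). CTBP2, a corepressor, had a log2 fold change of -1.37, and 34.3% of its exon bases lie opposite another gene. SNAI2 and ZEB2, named after their values were seen, were the other genes called higher, with log2 fold changes of 0.65 and 0.84.

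Of 6 tested factors known to sustain epithelial cadherin genes, 1 was called higher and 4 lower, beside 24.9% and 26.5% of all tested genes. ELF3, an epithelial ETS factor, fell from 72.1 ± 10.2 to 0.278 ± 0.0962 CPM (log2 fold change -7.96, SE 0.17, adjusted p = 1.37e-33, edgeR). FOXA1, a factor of urothelial identity, fell from 66.7 ± 2.74 to 13.8 ± 1.45 CPM, and KLF4 rose from 22.0 ± 3.20 to 62.7 ± 2.56 CPM. Among the 10 urothelial and epithelial markers, 6 of 6 tested genes were called lower, beside 26.5% of all tested genes. The summed CPM of the 10 markers was 4847 to 5578 in T24 and 2990 to 3190 in T24R2. KRT19 fell from 267 ± 7.23 CPM to at most 3 counts in any T24R2 library, at least 964-fold lower, and KRT7 and KRT18 had log2 fold changes of -0.71 and -0.69. Of the exon bases of KRT18, 17.1% lie opposite another gene. The part of these markers in the cadherin levels was not tested.

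Sequence around start sites could be read for CDH2 and CDH4, each with 2 start sites in RefSeq on GRCh38.p14. The windows of CDH2 were chr18:28177081-28177380 and chr18:28036592-28036891. They lie inside the gene, which is annotated here from position 28177946 on the minus strand. The windows of CDH4, at chr20:61499171-61499470 and chr20:61599511-61599810, lie inside the gene, which is annotated here from position 61252261. No window covers the annotated beginning of either gene. The motif CAGGTG, or CACCTG on the other strand, is the E-box that Snail and ZEB factors are known to bind, and it was searched from 250 bases before to 50 after each start. Of the 4 windows, 1 held it, at an internal start of CDH4, beginning 16 bases before that start. The site is shown here with the motif in capitals, as the plus strand of chr20:61499393-61499422.
CDH4: gggactggggtgCAGGTGtgcctggttcag
The motif occurs in 20.6% of all 35116 such windows, and neither window of CDH2 held it. A match is a description of the sequence and does not show binding.

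For the 3 members with the highest TPM, the genes with the most similar profile over the 10 libraries were found by the root mean square difference of centred log2(CPM + 0.5) among 14307 genes. MEGF9 (0.02) and ASAP1 (0.03) were nearest to CDH2. NFE2L2 (0.06), the gene of the oxidative stress factor NRF2, and CHORDC1 (0.07) were nearest to CDH13. CXCL5 (0.32), a chemokine, and SPINT1 (0.35), a protease inhibitor, were nearest to CDH5, and both had 0 counts in every T24R2 library. With 2 groups of libraries, such likeness mostly reflects a like difference between the lines, and it is a description over 10 libraries. For CDH5 the likeness also depends on the 0.5 added to CPM, which draws levels near 0 together. The fitted log2 fold changes were -13.2 for CXCL5 and -12.9 for SPINT1, which are no bounds at 0 counts, beside -8.72 for CDH5. Of the exon bases of CXCL5, 17.3% lie opposite another gene.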

How the data were processed

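Per the methods, labels and file headers, the authors used STAR 2.7.0 and the hg38 build for alignment, removed duplicates and multiply mapped reads by SAMtools 1.10, and assigned the rest to GENCODE release 39 genes by featureCounts 2.0.1 at strand option 1. The deposited values are raw counts per gene, with replicates not pooled. From these, the lines were compared in R 4.3.3 with edgeR 4.0.16 (filterByExpr, TMM, glmQLFit, glmQLFTest, Benjamini-Hochberg adjustment over 16181 genes). TPM was computed from the exon length in the tables. Exon overlaps were found by bedtools 2.31.1. Tables and figures were made in Python 3.11.15 using numpy 2.4.6, pandas 2.3.3, SciPy 1.17.1 and matplotlib 3.10.9. The removal of duplicates may lower counts of abundant transcripts. In each of 20 pairs of replicates, counts differed beyond sampling noise, with a ratio of chi-square to its degrees of freedom between 2.01 and 7.04.

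The members and lists were chosen with earlier results of these data known. Named genes were all members, every tested catenin, up to 3 genes per other list with the smallest adjusted p at a mean of at least 1 CPM, the nearest tested neighbours of each member, and the 2 genes most like each of 3 members. Alternatives were other scalings and count filters, DESeq2 1.42.0, limma-voom (limma 3.58.1), a replicate block, other thresholds, removal of genes overlapped from the opposite strand and leaving out each library. Taking off the counts of opposite-strand genes and the comparison of counts per base on both strands were added after seeing the data. The edgeR steps were tested on simulated counts.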

Additional observations from a re-analysis of the deposited data

Results flagged for a closer look

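CDH6 in T24R2 replicate 4, at 0.0891 CPM, stood apart from the other T24R2 libraries, which were all at 0. The value is 1 count. The same count gave a CDH6 share of 0.0120% of the summed TPM of the 8 members in that library, beside 0 in the others. In all, 26 groups of 5 libraries were examined for a single library far from the rest, and chance flags about 1.3 of them.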

How the results depend on the processing

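Among the recomputed values, 274 were classed as the same and 13 counts of calls moved by more than 1.5 times. No value reversed. Fold changes and shares classed as the same kept their direction and their side of the threshold, whereas a count of calls could differ by up to 1.5 times. The log2 fold change of CDH2 ranged from 0.81 to 1.00 over all settings, that of CDH13 from 1.43 to 1.64, that of CDH4 from -3.98 to -3.60 and that of CDH5 from -8.93 to -8.23. The fitted value of CDH6, which is no bound because T24R2 is at the floor, ranged from -8.43, without T24R2 replicate 4, to -4.60, with normal shrinkage in DESeq2, and CDH6 was called lower wherever it was tested. Members called higher numbered 1 without genes overlapped from the opposite strand, since CDH13 was then left out, and 1 at a log2 fold change over 1. Members called lower numbered 2 at a mean of at least 100 counts, where CDH6 was not tested. Partners called higher numbered 2 with library size alone, with upper-quartile factors and at a mean of at least 100 counts, 4 at an adjusted p alone, 0 at a log2 fold change over 1, and 1 to 2 when each library was left out, with 2 without T24R2 replicate 4. Partners called lower numbered 3 at a log2 fold change over 1, and 4 with library size alone and with upper-quartile factors, where NECTIN2 was lost. Without PCDH12, 4 other superfamily genes were called higher by DESeq2 and in 6 of the 10 fits that left out a library, and 4 to 5 over those 10 fits. Of the other cadherin superfamily genes, 1 was called higher and 7 lower at a mean of at least 100 counts, where fewer genes were tested, and 3 higher and 8 lower at a log2 fold change over 1. With a replicate block, 2 members were called higher and 3 lower, as without it, and all calls numbered 3979 higher and 4261 lower. Libraries with the same number did not deviate together over the tested genes (correlations of -0.021 to 0.016, beside at most 0.024 for other numbers). The numbers thus gave no sign of pairing, although such correlations could miss a pairing that affects few genes. Depth limits CDH1, CDH3, CDH6 and CDH11, and strand limits CDH13 and CDH2.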

Other observations

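The nearest tested neighbours of the tested members on their chromosomes were mixed in direction. At CDH13 both went the way of the member, at CDH6 neither did, and at CDH2, CDH4 and CDH5 they differed from each other. LINC00920, 3.73 kb to the right of CDH5, was higher in T24R2, with a log2 fold change of 1.50 (SE 0.31, adjusted p = 3.82e-05, edgeR), although at means of only 0.898 and 2.58 CPM. CDH8, the nearest tested gene on the other side at 4330 kb, had 0 counts in every T24R2 library and was at least 9.61-fold lower. Of 34 tested genes within 1 Mb of CDH5, 4 were called higher and 13 lower, beside 24.9% and 26.5% of all tested genes. The median log2 fold change of the 34 was -0.27. TAF4, 12.9 kb from CDH4, had a log2 fold change of -0.20 and was not called. Within 1 Mb of CDH4, 14 of 32 tested genes were called lower and 1 higher, beside the same shares over all tested genes. The median log2 fold change of the 32 was -0.47. On the other side of CDH4, at 485 kb, an unnamed gene (ENSG00000276627) had 0 CPM in T24 and 3.81 CPM in T24R2.

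Around CDH13, MPHOSPH6 and MLYCD had log2 fold changes of 0.42 and 0.65, and 8 of 20 tested genes within 1 Mb were called higher and 7 lower. The median log2 fold change of the 20 was 0.41. The shares over all tested genes, for this window and those below, were 24.9% higher and 26.5% lower. KCTD1 and DSC3, the nearest tested genes that do not overlap CDH2, at 1275 and 2811 kb on either side, differed in opposite directions, with log2 fold changes of 1.54 and -2.51. DROSHA, 71.3 kb from CDH6, had a log2 fold change of 0.38, and PURPL, 3697 kb away on the other side, had 0 CPM in T24 and 4.96 CPM in T24R2. Of 6 tested genes within 1 Mb of CDH6, 4 were called higher and the other 2 were not called, with a median log2 fold change of 0.57, whereas CDH6 was lower. CDH1 and CDH3 lie 9823 bases apart on chromosome 16 and share the neighbours ZFP90 (log2 fold change -0.18) and TANGO6 (log2 fold change -0.64), which had means of 36.8 and 25.3 CPM in T24, whereas neither cadherin exceeded 5 counts in any library. Within 1 Mb, 4 of 43 tested genes were called higher and 8 lower around CDH1, and 4 of 47 higher and 11 lower around CDH3. CDH11 has CDH8 and CDH5 as its nearest tested neighbours and no tested gene (0) within 1 Mb.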
